A study of Schizosaccharomyces pombe with 3 samples.

Results

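The comparison set the cohesin subunit Psc3 in fission yeast without the histone methyltransferase Clr4 (clr4d) against Psc3 in wild type. It used 2 of the 3 arrays of the study, 1 array per group. Its members were the array's genome probes: every probe that is not a control spot and was not marked non-uniform in either channel was kept, and the value of a probe is the log2 ratio of ChIP over input signal minus the median of its array. Of 41551 genome probes 41476 could be compared. Those left out were 62 probes non-uniform on the wild-type array, 9 on the clr4d array and the 5 probes of the clr4 deletion.

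Cohesin is a ring-shaped complex that holds sister chromatids together from S phase to anaphase, and Psc3 is one of its accessory subunits in Schizosaccharomyces pombe. Clr4 places methyl groups on lysine 9 of histone H3, the mark to which the heterochromatin protein Swi6 binds. Heterochromatin of this kind covers the repeats around the centromeres, the silent mating-type region and the chromosome ends, and Swi6 is known to recruit cohesin through Psc3.

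The study mapped Psc3 by chromatin immunoprecipitation of a Psc3-GFP fusion with an antibody against GFP, followed by hybridisation to a tiling array (ChIP-chip). The dye of the immunoprecipitated DNA was Cy5 (red) and that of the input DNA, from whole cells, was Cy3 (green), with no dye swap. The wild-type strain was Psc3-GFP::kanMX in a background with the alleles mat1Msmto, leu1-32 and ade6-216. For clr4d the labels give the deletion alone, so any further allele of that strain is not known. Both cultures were grown in rich medium at 30 °C, and cells were fixed for 30 min with paraformaldehyde at 18 °C and for 45 min with dimethyl adipimidate. Values of the cdc10-v50 array, from cells moved from 26 °C to 35 °C for 4 h, are given beside some results for orientation only. The title of that array calls them G1 cells. It had 1215 non-uniform spots, and its values were not filtered by that mark. Its quality result reads ExtractionEvaluate, against ExtractionInRange for the wild-type and clr4d arrays.

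With 1 array per group there was no replicate error and no test. SDs are spreads between probes, and "2-fold lower" or "2-fold higher" means a difference, clr4d minus wild type, at or beyond 1 on the log2 scale. The scan of wild type had 16 bits and that of clr4d 20 bits, with different versions of the scanner software, so genotype and scan cannot be told apart. The share of cells with Psc3 at a place and the amount per cell cannot be told apart either. The 5 probes of the clr4 deletion were picked by their input signal. They are those within 5 kb of clr4 whose log2 input, clr4d minus wild type, was -4 or lower. They lie on chromosome II (457501 to 459000 on the array). Their median input signal was 1689 for wild type, 1676 for cdc10-v50 and 7.51 for clr4d. That probes near clr4 met this rule goes with the label. Their low clr4d value was set by the rule and is no separate check of the deletion.

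Signals at the upper limit of the wild-type scan bound what could be measured. There, 2273 probes (5.47%) were saturated in the ChIP channel and 311 in the input channel, against 0 on the clr4d array. At the 39191 compared probes saturated in neither channel the median ratio was -0.04 in wild type and -0.03 in clr4d, a difference of -0.01 (SD 0.60). At the 1974 probes saturated in ChIP alone, where the wild-type ratio is a minimum, the median was 1.29 in wild type and 0.51 in clr4d, with 691 probes 2-fold lower and 31 higher. At 243 probes saturated in both channels, 237 of them on the arms, the wild-type ratio is undetermined. At 68 probes saturated in input alone it is a maximum.

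Across the genome 2147 probes (5.18% of those compared) were 2-fold lower in clr4d and 2002 (4.83%) were 2-fold higher. Lower and higher probes lay in different places. In the outermost 50 kb at the ends of I and II 70.5% of probes were 2-fold lower, on the mating-type contig 63.8%, on the array's contigs named pNSU 65.6% and at the centromeres 63.2%, against 2.95% on the arms. Of the probes that were 2-fold higher 98.3% lay on the arms, where they made up 4.95%. Because the arms are so much larger, they still held 54.6% of the lower probes.

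**Figure D1:**
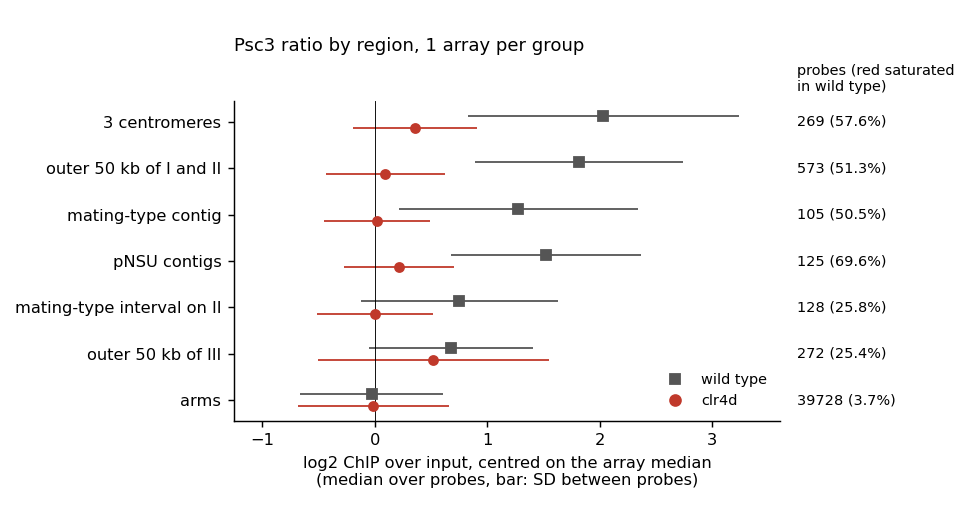
Median log2 ratio of Psc3 ChIP over input by region on the wild-type array (grey squares) and the clr4d array (red circles), with bars for the SD between probes and the number of probes at the right. In clr4d the centromeres, the outer 50 kb of I and II, the mating-type contig and the pNSU contigs lie between 0.02 and 0.36, while the outer 50 kb of III stays at 0.52.

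At the ends of chromosomes I and II Psc3 stood far above the genome median in wild type and near it in clr4d. Over the outer 50 kb, 573 probes, wild type had a median ratio of 1.81 (SD 0.92), cdc10-v50 2.57 and clr4d 0.09 (SD 0.53), and clr4d minus wild type was -1.59 (SD 1.05). The difference was smaller without saturated probes: over the 279 unsaturated probes the ratio was 1.02 in wild type and 0.16 in clr4d, a difference of -1.05 (SD 1.01). At those probes the ChIP channel differed by -0.95 and the input channel by 0.01, each relative to its own arm median. At the 290 probes saturated in ChIP the ratio was at least 2.19 in wild type and 0.01 in clr4d.

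The 4 ends were not alike. The right end of chromosome I had the largest measured difference, from 2.66 in wild type to 0.14 in clr4d (-2.43). Its 48 unsaturated probes gave nearly the same, from 2.86 to 0.43 (-2.44), with -2.49 in the ChIP channel and -0.05 in the input channel. The left end of chromosome I differed by -1.90, or by -1.30 over unsaturated probes. On chromosome II, over all probes, the left end differed by -0.997 and the right end by -0.91. All 4 ends held probes saturated in wild-type ChIP, where the wild-type ratio is a minimum. The order of the whole ends is thus not determined.

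The ends also differed in how far inward the lower ratio reached before its first break. In 5-kb steps from the end of the array's sequence, the mean difference first came within 0.5 of wild type at 95 to 100 kb on the right of chromosome I and at 50 to 55 kb on its left. On chromosome II this step was 30 to 35 kb on the left, at -0.49, and 35 to 40 kb on the right, at -0.44. The lower ratio did not end there. On the left the difference was -0.97 at 45 to 50 kb and -0.76 at 75 to 80 kb, and on the right -0.85 at 45 to 50 kb. The step at 25 to 30 kb on the left of II held only 3 probes. As measured, the lowest step was not always the outermost. On the right of chromosome I it lay at 25 to 30 kb, with 3.08 in wild type, -0.12 in clr4d and a difference of -3.20, and on its left at 10 to 15 kb, with -2.80. On both ends of chromosome II the outer 5 kb were lowest, with -2.31 and -1.87. In the lowest steps of chromosome I 15 of 17 probes on the right and 11 of 17 on the left were saturated in wild-type ChIP. In the outer 5 kb of chromosome I all 16 on the right and all 15 on the left were. On chromosome II these were all 13 on the left and 9 of 11 on the right. At probes saturated in ChIP alone the wild-type ratio is a minimum, so the order of the steps is not determined.

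Beyond 50 kb the left end of chromosome I was uneven too. Its step at 50 to 55 kb differed by -0.08, while the steps at 60 to 65 and 65 to 70 kb differed by -1.204 and -1.14. Between 50 and 100 kb the median difference was -0.86 on the right of chromosome I, -0.42 on its left, -0.42 on the right of chromosome II and -0.17 on its left.

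**Figure D2:**
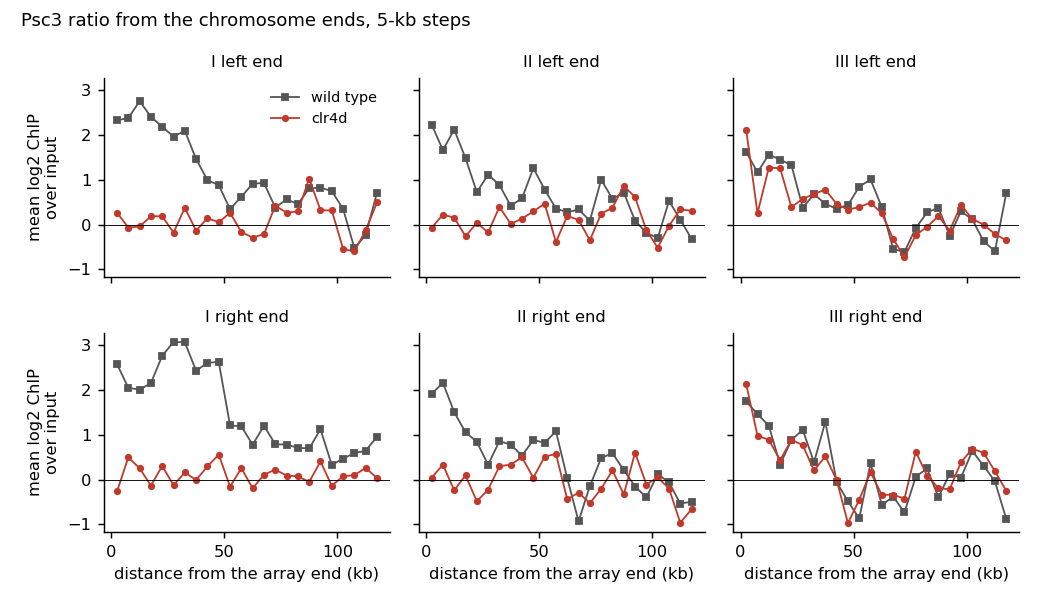
Mean log2 ratio of Psc3 ChIP over input in 5-kb steps from the 6 ends of the array's chromosome sequences, in wild type (grey squares) and clr4d (red circles). The clr4d curves stay near 0 at the ends of I and II, where wild type reaches 3.08 on the right of I, while both curves are high in the outer steps of III.

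Chromosome III, whose ends adjoin the ribosomal DNA, differed less at its ends. Over 272 probes of its outer 50 kb the median was 0.67 in wild type and 0.52 in clr4d, a difference of -0.15 (SD 0.88). Of these probes 38 (13.97%) were 2-fold lower and 16 (5.88%) were higher, against 70.5% and 0.17% at the ends of I and II and 5.18% and 4.83% over the genome. In the outermost 5 kb the mean ratio was 1.62 in wild type and 2.12 in clr4d on the left, and 1.75 and 2.13 on the right, but 12 of 13 and all 6 probes were saturated in wild-type ChIP, so the differences of 0.49 and 0.38 are upper limits. Both channels were lower in clr4d over the 203 unsaturated probes of these ends, ChIP by -0.86 and input by -0.90, and the ratio differed by -0.11.

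Over the 3 centromeres wild type had a median ratio of 2.03 (SD 1.20), cdc10-v50 4.25 and clr4d 0.36 (SD 0.55), and clr4d minus wild type was -1.51 (SD 1.25, 269 probes). Flanks and middle did not have the same values. Each centromere interval had a pit of low input and low wild-type ratio. The pit lay at the middle of the interval on chromosome I, right of it on II and left of it on III. The intervals were placed by reference genes and not corrected for the array's own positions. At centromere I the best shift between array and reference changed from -1120 to 4360 bp. On II it changed from -880 to -1820 bp and on III from 180 to -940 bp. Where the pits lie against the true middles is thus not determined. In the 3-kb step with the lowest wild-type ratio, a choice that favours a higher clr4d value, the pit had -0.37 in wild type and 0.24 in clr4d on I (0 to 3 kb right of the middle). On II it had -0.44 and -0.02 (0 to 3 kb right), and on III -0.59 and 0.45 (0 to 3 kb left). None of these 3 steps held a saturated probe. The central 6 kb of the 3 intervals, which on II and III take in steps beside the pit, went from -0.27 to 0.08 (difference 0.22, SD 1.13, 49 probes), and the remaining 220 probes from 2.14 to 0.38 (-1.65).

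Of the 170 centromere probes that were 2-fold lower, 151 were saturated in wild-type ChIP and 19 were unsaturated. At those 19 the ChIP channel differed by -2.25 and the input channel by -0.57, and ChIP moved more at all 19. Over 155 saturated probes the ratio was at least 2.25 in wild type and 0.40 in clr4d, and over the 114 unsaturated probes, 47 of them central, it was 0.19 and 0.18. Some of the unsaturated probes outside the central 6 kb lie in the pit of low input too. The probes whose names end in m, all in the flanks, show both channels. Their ratio was 2.22 in wild type and 0.44 in clr4d (difference -1.71, SD 0.67, 98 of 103 probes 2-fold lower). Their median input signal on the wild-type array was 990, on the cdc10-v50 array 656 and on the clr4d array 6992. Their median ChIP signal on the wild-type array was 5156, near the upper limit of that scan, on the cdc10-v50 array 28216 and on the clr4d array 8737. Relative to the arms the clr4d ChIP signal lay above the wild-type ceiling at 90 of the 100 saturated probes of this kind, so the direction of the ChIP channel alone is not known there. The input channel, also relative to the arms, differed by 2.96. The 127 centromere probes marked f behaved otherwise: their ratio went from 1.73 to 0.23, with -1.38 in the ChIP channel and -0.53 in the input channel.

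**Figure D3:**
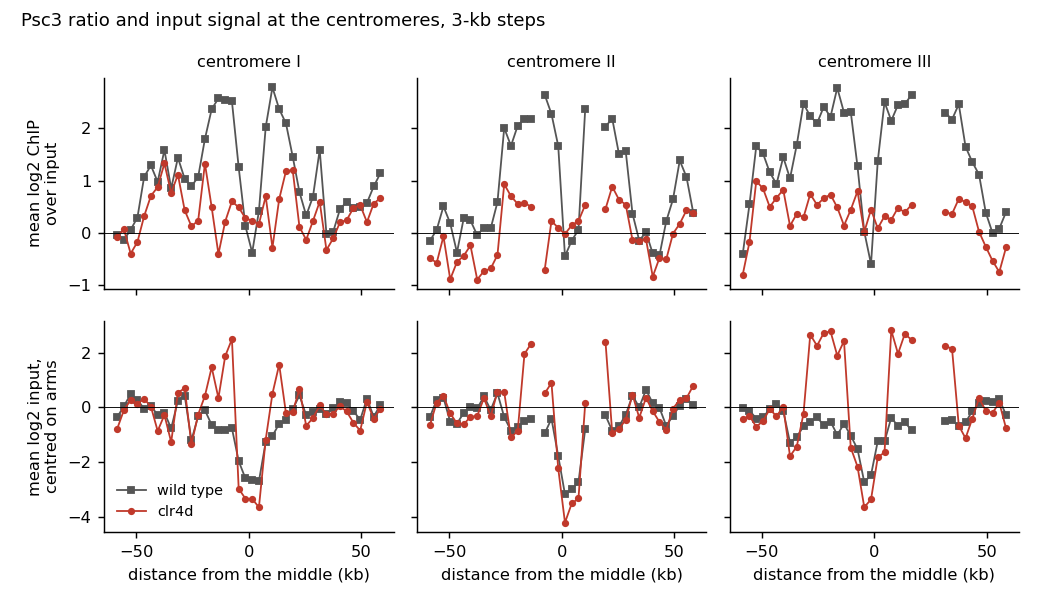
Mean log2 ratio of ChIP over input (upper row) and mean log2 input signal centred on the arms (lower row) in 3-kb steps around the middle of each centromere, in wild type (grey squares) and clr4d (red circles). The clr4d ratio is lower over both flanks. The clr4d input signal is higher over many flank steps, up to 3.37 on the left of III, and lower over others, such as -0.44 between 12 and 9 kb left of the middle of III.

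Next to the centromeres, where fewer probes were saturated, the ratio was lower on every side. Each side here joins the 5 kb taken off the gap between coding genes and the next 5 kb outward. These borders too are reference positions, so each side may be displaced on the array. The median went from 1.64 to 0.48 on the left of centromere I (difference -0.91) and from 1.44 to 1.03 on its right (-0.56). At centromere II it went from 1.39 to 0.29 on the left (-1.13) and from 1.54 to 0.62 on the right (-0.97). At centromere III it went from 1.28 to 0.60 on the left (-0.67) and from 1.62 to 0.48 on the right (-1.12). The clr4d ratio stayed above the array median on all of these 6 sides.

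The mating-type contig, which carries the silent mating cassettes, went from 1.28 in wild type to 0.02 in clr4d (difference -1.63, SD 1.13, 105 probes). The difference was uneven along it. From 25201 to 27000 the mean ratio was at least 3.04 in wild type and 0.08 in clr4d, the lowest step of 1.8 kb, with all 6 probes saturated in wild-type ChIP. From 16201 to 18000, where no probe was saturated, it went from 0.84 to -0.25 (-1.09, SD 0.15, 6 probes), with -1.11 in the ChIP channel and -0.05 in the input channel. From 1 to 1800 it was 0.30 and 0.56, the other way. The 52 unsaturated probes of the contig went from 0.78 to -0.09 (-0.96). On chromosome II itself the mating-type interval was set from the mat1 to the mat3 genes of the reference, with 10 kb added on each side. This interval went from 0.75 to 0.00 (-0.78, SD 1.03, 128 probes).

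The pNSU contigs resembled the centromere probes marked m in their channels. Their ratio was 1.52 in wild type and 0.21 in clr4d (difference -1.26, SD 0.91, 125 probes), with 69.6% of probes saturated in wild-type ChIP. The input signal of wild type was 1515, that of cdc10-v50 1693 and that of clr4d 4154. Relative to the arms the input channel differed by 1.73 and the ChIP channel by at most 0.42.

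**Figure D4:**
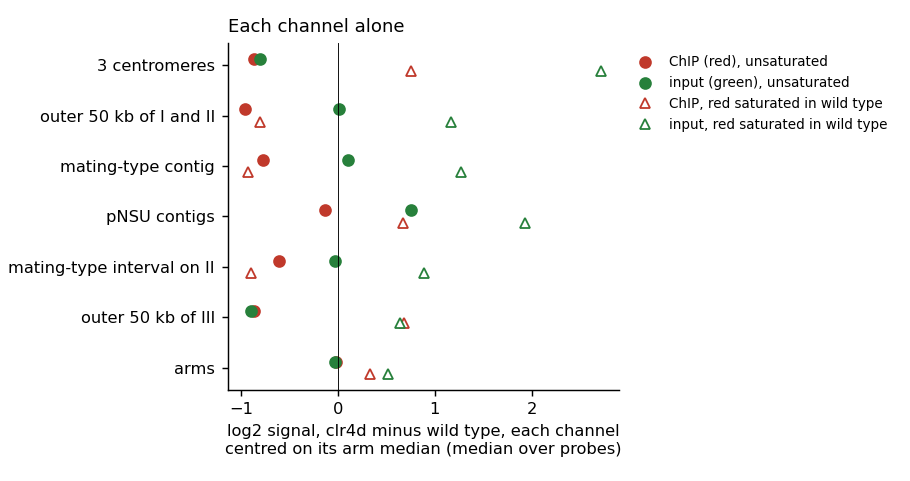
Difference in log2 signal, clr4d minus wild type, of the ChIP channel (red) and the input channel (green), each centred on its arm median, for probes unsaturated in wild type (filled circles) and saturated in wild-type ChIP (open triangles). At unsaturated probes of the outer 50 kb of I and II the ChIP channel differs by -0.95 and the input by 0.01, while at the saturated centromere probes the input differs by 2.71.

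In the channels plot the regions differ in which channel stood away from wild type, and where wild-type ChIP was saturated the red symbols are upper limits. Among all 1398 unsaturated probes that were 2-fold lower, the ChIP channel differed by -0.85 and the input by 0.37, and the ChIP channel moved more at 68.8% of them. At 147 such probes of the outer 50 kb of I and II the values were -1.37 and 0.26. At the 151 centromere probes that were 2-fold lower and saturated in wild-type ChIP the input differed by 2.74, and the ChIP channel by at most 0.76. At the 2002 higher probes both channels took part, with 0.68 in ChIP and -0.67 in input. Mitochondrial DNA belonged to neither kind: its 61 probes were all saturated in wild-type input, so their ratios of -1.44 in wild type and -3.99 in clr4d give no fall that can be read.

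Contiguous stretches traced these domains without fixed borders. Where the mean over 5 neighbouring probes differed 2-fold or more, 68 lower stretches were found outside mitochondrial DNA, 347.7 kb in all. The longest, 53.1 kb, lay on the right of chromosome I from 5520901 to 5574000, with 2.48 in wild type and 0.13 in clr4d over 166 probes. On the left of chromosome I a stretch from 901 to 28800 went from 2.37 to 0.03. On the mating-type contig a stretch from 11701 to 35400 went from 2.13 to 0.05. In that order 106 of 166, 71 of 83 and 36 of 61 probes were saturated in wild-type ChIP. The wild-type means of these stretches are thus bounded by the upper limit of that scan.

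On the arms 38 short stretches were lower, with a median length of 1.80 kb. They lay near the domains more often than arm probes do. Within 100 kb of a centromere, where 4.53% of arm probes lie, there were 12 of these 38 stretches and the median difference was -0.35. Within 100 kb of an end of a chromosome, with 2.45% of arm probes, there were 7 and the difference was -0.31. Within 100 kb of the mating-type interval, with 1.59%, there were 4 and the difference was -0.26. The other 15 lay among the remaining 91.4% of arm probes, whose median difference was 0.01.

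Some of these places were unsaturated in both channels. On chromosome II from 3364201 to 3366000 wild type had 1.64, cdc10-v50 0.43 and clr4d 0.05 (difference -1.59, SD 0.43), with -1.19 in the ChIP channel and 0.35 in the input channel. On chromosome II from 1572301 to 1573800, near the centromere, the values were 0.49, -0.50 and -1.23 in that order (-1.72, SD 0.38). The input channel moved more there, by 1.00, against -0.68 in the ChIP channel. On chromosome II from 1950301 to 1951800 the ratios in the same order were 0.82, 0.14 and -0.79 (-1.61). In that place the ChIP channel differed by 0.59 and the input by 2.17. In each of these 3 places the cdc10-v50 ratio lay between the other arrays, but lower stretches were found by wild type exceeding clr4d. Elsewhere on the arms it also lay above both at unsaturated stretches. On chromosome I from 5506501 to 5510100 wild type had 1.36, cdc10-v50 2.02 and clr4d -0.04. No common place of the cdc10-v50 array can be read from the 3 examples.

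The 43 higher stretches were shorter and of another kind. They covered 78.0 kb with a median length of 1.5 kb, and all but 1 lay on the arms more than 100 kb from any end, centromere or the mating-type interval. In 39 of them the wild-type ratio was below 0, and in 40 the clr4d ratio was above 0, but it reached 1 in only 10. The ChIP channel was higher in 42 of 43 and the input channel lower in 28. The longest, 3.6 kb on chromosome I from 5091601 to 5095200, went from 0.02 in wild type to 1.52 in clr4d (difference 1.498, SD 0.81), with 0.14 on the cdc10-v50 array. On chromosome III from 1510801 to 1512300 it went from -0.90 to 1.00 (difference 1.90, SD 0.72), with -0.30 in cdc10-v50. The exception off the arms lay at the left end of chromosome III from 3001 to 4500, where wild type had 1.86, clr4d 3.87 and cdc10-v50 4.49 and all 5 probes were saturated in wild-type ChIP.

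**Figure D5:**
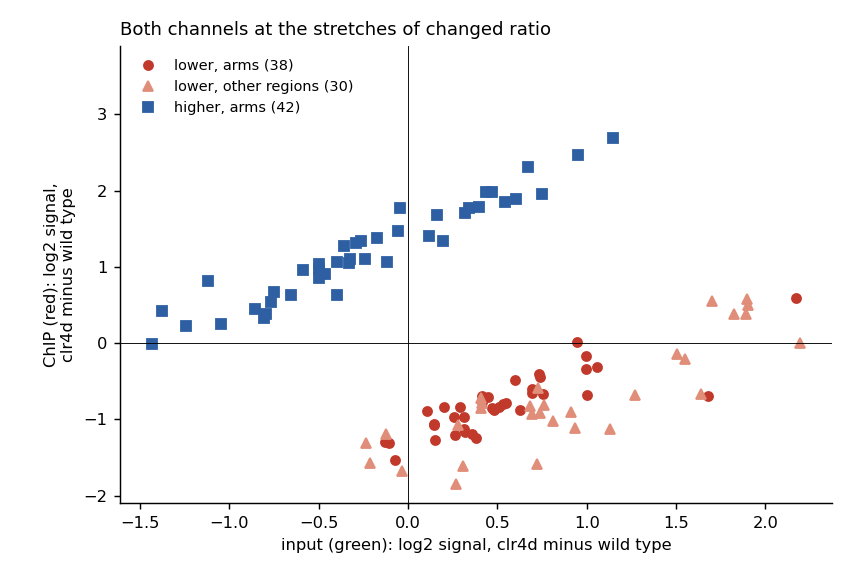
Mean difference in log2 input signal (horizontal) and log2 ChIP signal (vertical), clr4d minus wild type, for each stretch whose ratio was at least 2-fold lower on the arms (red circles) or elsewhere (pale triangles, mitochondrial DNA left out) or 2-fold higher on the arms (blue squares). Lower stretches mostly combine lower ChIP with higher input, and the ChIP signal of the higher stretches is above wild type in all but 1 of the 42.

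Over whole 5-kb windows the arms differed little. Of 2400 arm windows 13 (0.542%) were 2-fold lower and 1 (0.0417%) was 2-fold higher, the SD between windows was 0.32, and 89.5% lay within 0.5 of wild type. The lowest lay on chromosome I at 5520001 to 5525000 (1.21 in wild type, -0.16 in clr4d, difference -1.37), next to the outer 50 kb. The second, on chromosome I at 3745001 to 3750000 (1.01 and -0.23, -1.24, 6 probes), lay near the centromere. The window that was 2-fold higher, on chromosome I at 5090001 to 5095000 (0.31 and 1.34, difference 1.03, SD 1.05), overlaps the longest higher stretch. By chromosome the median window difference was 0.06 on I, -0.04 on II and 0.07 on III.

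Peaks of Psc3 along the arms were partly shared. With a running mean over 3 probes of at least 1, wild type had 265 arm peaks and clr4d 314. Of the wild-type peaks 62.3% overlapped a clr4d peak, and of the clr4d peaks 53.2% overlapped one of wild type. The overlap to be had from peak coverage alone was not computed. Among single arm probes at 1.5 or more in wild type, 70.6% had a clr4d ratio of at least 1. The share was 41.1% for wild-type ratios from 1 to 1.5, and 2.09% for those from -0.5 to 0. Probes saturated in wild-type ChIP lay in 174 of the 265 wild-type peaks and in 122 of the 165 shared ones. The wild-type ratios of those peaks are thus bounded by the scan. Shared wild-type peaks had a median ratio of 1.28 in wild type and 1.15 in clr4d. The 100 peaks found in wild type alone had 1.15 and 0.53, and 26 of them were 2-fold lower. The 147 found in clr4d alone had 0.54 and 1.22, and 38 were 2-fold higher, so most peaks of a single array were above the median on the other array too. Clr4d peaks were shorter, with a median length of 1.8 kb against 2.7 kb. Being more numerous, they covered nearly the same total length, 791.7 kb against 790.8 kb in wild type. On chromosome III wild type had 40 peaks and clr4d 61, on chromosome I 128 and 151, and on chromosome II 97 and 102.

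Genes could be named only between 50 and 1000 kb of chromosome III, where positions on the array matched the reference. Of 374 protein-coding genes there 342 had at least 3 probes, 5 (1.46%) were 2-fold lower and 3 (0.877%) were 2-fold higher. The SD between genes was 0.42 and 280 genes lay within 0.5 of wild type. Psc3 over the 2-fold lower genes mae2 (malic enzyme), ura4 (orotidine decarboxylase of uracil synthesis) and tpi1 (triosephosphate isomerase of glycolysis), and over mug111, a gene upregulated in meiosis with the largest positive difference, is followed here with a stretch of each coding sequence. They are shown because the mae2 signal may be shared with other places: capitals mark bases covered by 25-base words found as well within 50 kb of an end of I or II (RefSeq, ASM294v3, coding strand).
mae2, chrIII:276216-276335 (-): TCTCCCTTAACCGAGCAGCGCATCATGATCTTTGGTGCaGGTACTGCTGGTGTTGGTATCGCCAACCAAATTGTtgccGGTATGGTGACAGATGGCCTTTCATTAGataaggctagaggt
ura4, chrIII:116456-116575 (-): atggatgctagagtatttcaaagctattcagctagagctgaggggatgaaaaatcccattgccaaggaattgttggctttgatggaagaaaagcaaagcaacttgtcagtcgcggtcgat
tpi1, chrIII:939945-940064 (+): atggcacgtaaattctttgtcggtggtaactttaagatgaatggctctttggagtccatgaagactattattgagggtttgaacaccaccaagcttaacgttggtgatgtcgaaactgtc
mug111, chrIII:632248-632367 (+): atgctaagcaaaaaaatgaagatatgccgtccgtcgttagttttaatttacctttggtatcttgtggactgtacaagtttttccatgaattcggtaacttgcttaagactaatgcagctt
In the mae2 stretch 101 of 120 bases are in capitals and in the other stretches 0. Over the whole genes 188 of 1978 words of mae2 (9.51%) occurred elsewhere, all 188 within 50 kb of those ends, against 0 of 1013 in ura4, 0 of 933 in tpi1 and 0 of 2050 in mug111.

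Over mae2 the mean ratio of wild type was at least 2.36, that of cdc10-v50 3.21 and that of clr4d -0.60 (difference -2.96, SD 0.20, 5 probes, all saturated in wild-type ChIP), so wild type was at least 7.80-fold above clr4d. The 5 probes ran from -3.22 to -2.70 and all carry the mark f. The input signal of mae2 was also higher in clr4d, by 2.56 relative to the arms. At its probe from 276301 to 276600, which overlaps the sequence shown, wild type had an input signal of 836, cdc10-v50 of 1192 and clr4d of 4648. Words shared with the ends of I and II, a marked name and a higher clr4d input thus came together at mae2, and the part of each in the difference was not tested.

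At ura4 only the wild-type array stood high. Wild type had a ratio of at least 2.50, cdc10-v50 of 0.24 and clr4d of 0.57 (difference -1.92, SD 0.30, 4 probes, all saturated in wild-type ChIP), which put wild type at least 3.79-fold above clr4d. The ChIP signal of the 4 probes was between 4986 and 6093 in wild type and between 1743 and 3228 in clr4d. Relative to the arms ChIP differed by at most -0.94 and input by 0.95. The neighbouring gene pmp20, chosen after its value was seen, had -0.23 in wild type and -1.38 in both cdc10-v50 and clr4d (-1.15, SD 0.42).

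tpi1 was lower at unsaturated probes. Wild type had 0.30, cdc10-v50 -0.13 and clr4d -0.97 (difference -1.27, SD 0.31, 3 probes), with -0.43 in the ChIP channel and 0.80 in the input channel. The splicing factor gene bpb1 went from 0.90 to -0.31 (-1.21, SD 0.32, 7 probes, 3 saturated). Among genes short of 2-fold, the catalase gene ctt1 had -0.91 and differed in ChIP (-0.90) with no matching difference in input (-0.03). The values were -0.71 at eft202 (translation elongation factor 2), -0.66 at atg1 (the kinase that starts autophagy), -0.63 at xlf1 (DNA end joining) and -0.59 at sfh1 (a subunit of the RSC chromatin remodeller). Of these, xlf1 had the larger difference in ChIP, -0.92 against -0.33 in input. At eft202 ChIP differed by -0.07 and input by 0.60, at atg1, with 7 of 9 probes saturated, by at most -0.09 and by 0.54, and at sfh1 by 0.17 and 0.72.

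The higher genes were all low or modest in wild type. mug111 went from -0.97 in wild type and -0.42 in cdc10-v50 to 0.13 in clr4d (difference 1.10, SD 0.55, 7 probes), and its last probe, 633901 to 634200, differed by 2.29 while the other 6 ran from 0.65 to 1.09. SPCC1795.12C went from 0.40 to 1.44 (1.03, SD 0.62, 3 probes) and cox19, for a mitochondrial copper chaperone, from -0.10 to 0.92 (1.02, SD 0.48, 4 probes). No probe of these genes was saturated. After loess normalization SPCC1795.12C had 0.84 and cox19 0.95, and with positions shifted by 100 bp SPCC1795.12C had 0.68 and mug111 0.90, all short of 2-fold. Short of 2-fold were vma21 (0.95) and vph2 (0.74), which both serve assembly of the vacuolar proton pump, rsm18 of the mitochondrial ribosome (0.80), rad16, the XPF nuclease of DNA repair (0.74), and sec59, for dolichol kinase (0.73). At SPCC1235.17 (0.86) both channels were higher in clr4d, ChIP by 1.93 and input by 1.03. At rsm18 the difference came with lower input, -0.92, and a ChIP difference of -0.08.

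Short stretches and peaks added other genes on this part of chromosome III. Higher stretches lay over bqt3 (-1.10 in wild type, 0.32 in clr4d), which anchors telomeres at the nuclear envelope in meiosis, over mrpl4 and the recombination endonuclease gene mus81 (-0.09 and 1.34), and over SPCC16C4.21 (-0.93 and 0.57). A peak over SPCC1795.12C and the RNA helicase gene sum3 was found in clr4d alone (0.49 and 2.03). The highest clr4d peak, from 968101 to 969000, covered no gene and its 3 probes differed by 2.09 with an SD of 2.83, more than the difference itself. Tall peaks shared by both arrays were closer, with 1.76 and 1.55 over pog1 and opy1 (941101 to 947400), 1.69 and 1.55 over duc1 and SPCC594.02C (355501 to 359700), and 1.55 and 1.27 over lat1, efr3 and tef101 (264301 to 268200). Of their probes 10 of 21, 5 of 14 and 4 of 13, in that order, were saturated in wild-type ChIP.

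Of the genes listed for the heterochromatin machinery, raf2 (0.05), for a subunit of the complex in which Clr4 works, and ago1 (0.11), for the Argonaute protein of RNA interference, lay close to wild type. No cohesin gene lay on the stretch. The 5 measured ribosomal protein genes ran from -0.48 at rpl902 to 0.09 at rpl1702, with a median of -0.08. The 8 mug genes (meiotically upregulated) had a median of 0.37, with 2 below 0 and 1 gene 2-fold higher. Over all 342 genes the median was 0.08, with 140 below 0 and 0.877% 2-fold higher. The highest mug gene in either array was mug73, with 1.38 in wild type and 1.86 in clr4d. The 5 wtf genes, a family of meiotic drivers, ran from 0.09 to 0.67 at wtf7, with none 2-fold higher, and 4 of them held saturated probes.

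The 11 tRNA genes on the stretch, each with its 300-bp flanks, had a median difference of 0.36 and none reached 2-fold. The largest were SPCTRNAASN.05, with 0.90 in wild type and 1.65 in clr4d, and SPCTRNASER.08, with 0.25 and 1.00. Between genes the ratio was higher in clr4d in every orientation. Convergent intervals, where transcription of both neighbours ends and cohesin is known to collect, had the highest ratios in both arrays, 0.06 and 0.64 (difference 0.39, SD 0.59, 51 probes). Tandem intervals had -0.31 and -0.04 (0.21, 316 probes), divergent intervals -0.65 and -0.32 (0.19, 379 probes), and gene bodies -0.03 and 0.00 (0.04, 2393 probes). In convergent intervals the ChIP channel differed by 0.06 and the input channel by -0.54, in tandem intervals by -0.16 and -0.37, and in divergent intervals by -0.14 and -0.42, so the higher ratios came with lower input in all 3 kinds.

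Away from heterochromatin the clr4d ratios were closer to the median at both extremes of the wild-type ratio, which is itself part of the difference. Arm probes below -1 in wild type had medians of -1.15 in wild type and -0.59 in clr4d, and those at 1.5 or more had 1.69 and 1.33. The cdc10-v50 array gave -0.71 and 1.38 for the same probes. Both comparisons share the wild-type array by which the probes were sorted, so a value closer to the median is built into each. Differences also followed the wild-type input signal: the arm probes with the lowest 10% of input had a median difference of 0.46 and those with the highest 10% had -0.16. Across arm probes the ratios of wild type and clr4d had a Pearson correlation of 0.61, and across 5-kb arm windows 0.80, where neighbouring probes share fragments and all values come from the same pair of arrays. Within single channels the correlations were 0.87 for ChIP and 0.88 for input.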

How the data were processed

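The members and gene lists were chosen with earlier results of these data known. Psc3 ChIP (Cy5) and input (Cy3) DNA were hybridised to 1 array per group. Per the file headers, processed intensity in the deposited files is background-subtracted, detrended and dye-normalized by Agilent Feature Extraction, multiplicative detrending being 0 for clr4d. The deposited log10 ratio is red over green. The authors' deposited table holds log2 of green over red, not centred, and served as an alternative. The 0 and 1 flags and other score columns are as the scanner software deposited them.

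From these, log2 of red over green processed signal was centred on each array's median (0.17 in wild type, -0.04 in clr4d), with no loess. Channels alone were centred on arm medians. The 1417 control spots were left out. Region values are medians and gene, window and stretch values means over probes. Median spot signals were 20214.5 red and 19271 green in wild type, and 8767 and 10123 in clr4d. The genome build, not given in the sources used here, was checked by matching input signal to GC content of ASM294v3: 10 pieces of the left part of chromosome III fitted best within -140 to 100 bp, and the largest shift elsewhere was 4520 bp, so other positions are the array's own. Centromeres are the longest gaps between coding genes of the reference, 5 kb taken off each side. The borders of these and of the mating-type interval on II were not shifted to the array's positions. Stretches and peaks join runs within 1 kb. What the letters f, m and r in probe names mean is not given.

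Named genes are the 10 largest rises and falls among genes whose probes all exceed background and share 1 direction, no more than 1 in 10 kb, with list members, and genes under leading peaks and windows. Alternatives were normexp (offset 50, on median signals because the files used hold no mean column), the authors' table, loess, other centring, spot filters, saturated, dim or marked probes left out, and other thresholds. Methods were tested on simulated data. Python 3.11.15, numpy 2.4.6, pandas 2.3.3, scipy 1.17.1, matplotlib 3.10.9, R 4.3.3 and limma 3.58.1 were used. Other per-sample columns numbered 0. A result for 1 member of the gene lists is not reported here.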

Additional observations from a re-analysis of the deposited data

How the results depend on the processing

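No paired analysis was possible because each group has 1 array, and no replicate could be left out. Over 42 results and 23 settings, 406 of 453 values stayed within the spread or within 1.5 times the count, 46 moved and 1 reversed. The spread of a region is its SD between probes, a loose limit. At the ends of III the SD was 0.88 beside a difference of -0.15. Input at the ends of I and II went from 0.55 to 0.01 without saturated probes and still counted as unchanged. The authors' table holds the same ratios with the sign turned. The tally is thus no measure of robustness. Named genes kept their direction in all 219 values. The range over settings was -2.14 to -0.86 for the ends of I and II and -0.30 to -0.09 for the ends of III. The values -0.86 and -0.09 came from the outer 100 kb. With the outer 50 kb kept, the smallest differences were -1.05 and -0.11. The range was -2.15 to -0.96 for the mating-type contig and -1.89 to -1.07 for the pNSU contigs.

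The centromere difference did not hold up in this way. Without probes saturated in wild-type ChIP, or in either channel, it was -0.13, and without marked probes, which leaves 39, it was 0.048 and so reversed. Both settings remove most flank probes. With normexp 4459 probes and 41 windows were 2-fold lower, 5 windows higher, 180 stretches lower, 9 genes higher and wild type had 525 peaks. With loess 1108 probes were higher, 8 windows lower and 0 higher, 13 stretches higher, 1 gene higher, and 73.6% of wild-type peaks were shared. The cause was not tested for either. At 1.5-fold 6437 probes were lower and 5693 higher. Without probes saturated in either channel 1398 probes, 42 stretches and 3 genes were lower, and without those saturated in ChIP 43 stretches and 3 genes. Windows of 2 kb gave 57 lower and 62 higher, windows of 10 kb 3 and 0. A running mean over 9 probes gave 14 higher stretches. A peak threshold of 1.5 gave 74 peaks in wild type, 87 in clr4d and 52.7% shared. Genes with at least 5 probes numbered 2 lower and 1 higher, and a shift of 100 bp left 1 higher. Leaving out probes saturated in either channel, and leaving out mitochondrial DNA, were chosen after seeing the data. The single array per group and the wild-type ceiling limit every value.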
